A study of Mus musculus with 12 samples.

Results

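The interaction of peptide and dose was examined in all 12 arrays of the series. For each gene it asks whether the difference between a strong and a weak peptide was the same at a high and at a low dose. The cells were 5CC7 T cells, whose T cell receptor is a transgene, so that all of them recognise the same antigen. In every group these cells had been given to B10.A mice through the tail vein. The mice then received 0.2 µg or 2 µg of the peptide MCC or of the peptide 102S in PBS by the same route, and the transferred cells were sorted from pooled lymph nodes 48 h after the peptide. MCC is the strong agonist of this receptor and 102S the weak one, per the series' design text. The 4 groups were 102S at 0.2 µg, 102S at 2 µg, MCC at 0.2 µg and MCC at 2 µg, with 3 arrays each. Each array measured total RNA with 22690 probe sets of an Affymetrix mouse chip, as log2 expression values. The cells carry 1 receptor and had been placed in a host with its own T cells, no unstimulated cells were analysed here, and the labels give neither the age of the mice nor whether replicates were separate animals, so the p-values cover the spread among these arrays and no more. In bulk RNA of this kind, fewer cells of a type and less RNA per cell cannot be told apart.

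A T cell responds both to how strongly its receptor binds a peptide and to how much of that peptide is presented. Activation lowers the genes of the resting state, raises receptors for costimulation and cytokines, and drives cells into division. Some genes follow this in an all-or-none way, while others are graded with the stimulus.

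The interaction was computed on the log2 scale as MCC minus 102S at the high dose, less the same difference at the low dose. A value below 0 means that MCC stood less far above 102S, or further below it, at 2 µg than at 0.2 µg. It was tested with limma in 13576 probe sets, of which 12442 carried 1 gene symbol, for 7956 genes. At an adjusted p under 0.05, 104 of the 13576 passed, a background of 0.766%, with 94 below 0 (0.692%) and 10 above 0 (0.0737%). Of the 104, 95 had 1 gene symbol, 86 below 0 and 9 above, and these stood for 87 genes. Over all tested probe sets the median interaction was -0.02 and 51.9% lay below 0, and the median standard error of an interaction was 0.26. The count rests on few arrays: with 1 array left out it ran from 62 to 142. It was 63 without replicate 2 and 66 without replicate 3 of 102S at 2 µg, 67 without replicate 1 of 102S at 0.2 µg, 62 without replicate 2 and 67 without replicate 3 of MCC at 0.2 µg, and 68 without replicate 3 of MCC at 2 µg.

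The sorted cells carried the labelled T cell transcripts. The 7 tested markers of CD4 T cells, among them Cd3d, Cd3e, Cd28, Thy1 and Cd4, summed to between 13.97 and 14.27 log2 on every array, and 0 of the 7 passed the interaction. Of 10 B and plasma cell markers on the array, 5 were tested, Ighm, Cd74, Cd79b, Cd22 and Sdc1, and Cd79a, Ms4a1, Pax5, Blk and Jchain were under the detection filter. Of 13 myeloid and dendritic cell markers 5 were tested, Cst3, Lyz2, Csf1r, Flt3 and H2-Eb1, of which Cst3 averaged 7.97 to 8.23 log2 in the groups and the others 4.46 to 5.48. The other 8 were under the filter, among them Itgam, Cd14, Adgre1 and Itgax, and so were all 3 erythroid genes. The summed B cell list ran from 11.45 to 11.62 in 102S at 0.2 µg, 11.11 to 11.18 in 102S at 2 µg, 10.73 to 10.84 in MCC at 0.2 µg and 10.89 to 11.07 in MCC at 2 µg, and its highest member was Ighm. The list of CD8 T and NK cells summed to between 9.81 and 10.04 in 102S at 0.2 µg, 9.23 and 9.32 in 102S at 2 µg, 8.80 and 9.21 in MCC at 0.2 µg, and 8.48 and 8.73 in MCC at 2 µg, and 0 of its 6 tested genes passed the interaction. The 3 arrays of each group were not alike in source: Xist read 11.72 to 12.27 on the replicate 1 arrays and 4.05 to 5.10 on all others, and the Y-linked Eif2s3y read 3.31 to 4.26 and 8.75 to 9.37, so the sex of the cells differed between replicate 1 and the rest in all 4 groups alike.

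Most of the genes that passed shared one shape. MCC had them high at both doses, 102S had them low at 0.2 µg, and 2 µg of 102S brought them most of the way to the MCC level. Among the 86 probe sets with an interaction below 0, MCC stood above 102S at 0.2 µg in 81, and the level was higher with 2 µg than with 0.2 µg of 102S in 82. With MCC the level was lower at 2 µg than at 0.2 µg in 55. The larger of the dose differences was that of 102S in 72 and that of MCC in 14. Their median difference between the peptides was 1.84 log2 at 0.2 µg and 0.37 at 2 µg, and their median dose difference was 1.497 for 102S and -0.16 for MCC. In 57 the peptide difference kept its sign and shrank, in 24 its sign turned and in 5 it grew. The dose difference of 102S passed on its own in 64 of the 86, that of MCC in 11, both in 7 and neither in 4. Over all tested probe sets 3.16% passed for the dose of 102S and 1.76% for the dose of MCC. The peptide difference passed at both doses in 38 of the 86, only at 0.2 µg in 39 and only at 2 µg in 9, beside 14.3% of all tested probe sets at 0.2 µg and 10.3% at 2 µg. These differences use the arrays of the interaction itself, so they describe its shape and are no further test of it. The detection filter was on the mean of all 12 arrays, and 24 of the 86 had their 102S mean at 0.2 µg under its limit of 4.47 log2, where fold differences are understated.

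**Figure D1:**
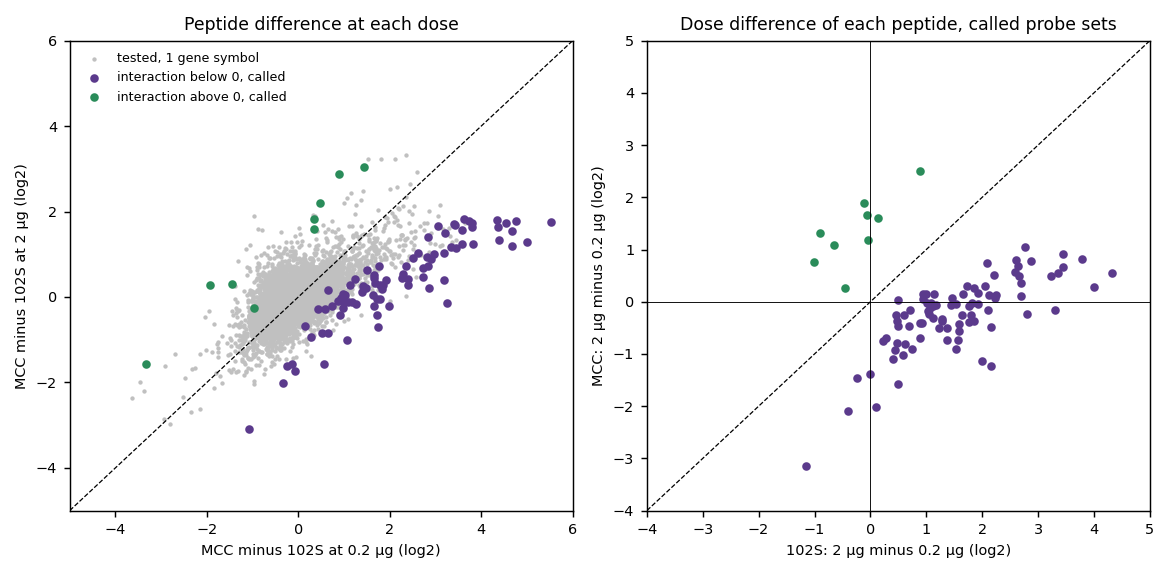
The left plot shows the MCC minus 102S difference at 0.2 µg (x axis, log2) against that at 2 µg (y axis, log2) for the tested probe sets with 1 gene symbol, and the right plot the dose difference of 102S (x axis, log2) against that of MCC (y axis, log2) for those that passed. The 86 points with an interaction below 0 lie under the dashed line of equal differences, mostly far to the right in both plots, and the 9 above 0 lie over it.

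The 3 lowest interactions belonged to genes of cell division, Mki67, Birc5 and Rrm2. Mki67, which encodes the proliferation antigen Ki-67, read 3.82, 3.88 and 4.17 log2 on the arrays of 102S at 0.2 µg, and 7.60, 8.67 and 8.56 on those of 102S at 2 µg. With MCC it read 9.30, 9.46 and 9.69 at 0.2 µg and 9.91, 9.99 and 10.18 at 2 µg. The 4 groups did not overlap, and 102S at 0.2 µg stood far under the other 3. The peptide difference was 46.2-fold at 0.2 µg and 3.36-fold at 2 µg, and the interaction was -3.78 ± 0.34 (SE, 3 arrays a group; adjusted p = 0.000294 in limma). Birc5, which encodes survivin, a subunit of the chromosomal passenger complex, read 3.03 to 3.65 with 0.2 µg of 102S, 6.54 to 7.90 with 2 µg of 102S, 7.94 to 8.67 with 0.2 µg of MCC and 8.54 to 8.81 with 2 µg of MCC. Its MCC groups overlapped each other, and its interaction was -3.72 ± 0.44 (adjusted p = 0.00172). Top2a, the topoisomerase that untangles replicated DNA, read 4.85 to 4.92, 7.09 to 7.75, 8.45 to 8.91 and 9.30 to 9.32 in the same order of groups, an interaction of -1.97 ± 0.26 (adjusted p = 0.00308).

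Of 30 mitosis genes listed, 28 were tested and 8 passed, all with an interaction below 0. They were Birc5, Ccna2, Ccnb2, Mki67, Nuf2, Nusap1, Top2a and Ube2c. Ube2c, the ubiquitin-conjugating enzyme that works with the anaphase-promoting complex, had -2.54 (adjusted p = 0.0145). The cyclin gene Ccnb2 had an interaction of -2.97 ± 0.44, Nusap1, which encodes a spindle-associated protein, -2.82 ± 0.32, and the kinetochore gene Nuf2 -2.58 ± 0.38, with adjusted p of 0.00719, 0.00131 and 0.00799. With 1 probe set for each gene, 67 of all 7956 genes passed below 0 and 5 above. The median of the list was -0.89, beside -0.04 over all 7956 genes, and 92.9% of its members lay below 0, beside 55.8%. The median peptide difference of the list was 2.50 log2 at 0.2 µg and 1.49 at 2 µg. Of 32 DNA replication and nucleotide synthesis genes, 29 were tested and 3 passed below 0, and the median was -0.60. These were Rrm2, a subunit of ribonucleotide reductase, with -3.47 ± 0.42, the PCNA-binding factor gene Pclaf with -2.73 ± 0.40, and the thymidine kinase gene Tk1 with -1.96 ± 0.37, with adjusted p of 0.00182, 0.00748 and 0.0323. Tk1 no longer passed in 8 of the 12 fits that left out 1 array, with an adjusted p of up to 0.109, without replicate 2 of 102S at 2 µg. The G1 cyclins and CDK inhibitors, which act before replication, had 0 of 15 tested genes past the test and a median of 0.16. In a list of this size, 0 is near the share over all genes.

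Probe sets for the same division gene did not always give the same value. Another probe set for Rrm2 also passed, at -2.02, while the remaining one gave -0.27 (adjusted p = 0.776), reading 4.44 to 4.97, 5.58 to 5.97, 6.09 to 6.81 and 7.03 to 7.25 in the order of groups above. The motor gene Kif11 passed with 1 probe set at -2.08 and gave -0.02 and 0.08 with its others. Of the 40 genes that passed and had several tested probe sets, 34 had all of them on one side of 0, 8 had more than 1 past the test, and 0 had probe sets past the test on both sides. The sign also depends on the scale. For 75 of the 86 probe sets below 0 the difference of differences of the unlogged values had the same sign, and for 11 it was opposite, among them Mki67, Ccnb2, Nusap1, Top2a, Cd200 and Ccr9. In the first 5 of these, the ratio between peptides was smaller at 2 µg while the gap in arbitrary units was wider.

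Promoters of the division genes were read for the letters to which known cell cycle regulators bind. The cell cycle homology region, searched as TTTGAA, and the CCAAT box, searched as CCAAT, are elements of promoters that peak before mitosis, and E2F factors act at the start of replication. Both strands of 300 bases, from 250 before to 50 after each start in RefSeq (GRCm38.p6), were searched in 27025 genes. Of the 12 genes of both lists that passed with any probe set, 11 had a promoter in that table. TTTGAA was in 5 of these 11, beside 18.1% of all promoters and 11.6% of those of the 6504 tested genes that had one. CCAAT was in 7 of the 11, beside 37.9% and 38.8%. TTCCCGC or TTGGCGC, taken as E2F letters, was in 2 of the 11, beside 6.93% and 13.1%. The AP-1 letters TGANTCA were in 0 and the NFAT letters GGAAAA in 2, beside 4.60% and 20.8% of tested genes. In the 48 genes with a promoter that passed below 0 and were on neither list, TTTGAA was in 6 and CCAAT in 19. In the 7 with a promoter that passed above 0, each was in 3, so TTTGAA was in a like share, 42.9%, of these few genes and, at 45.5%, of the division genes. Such matches are descriptions of the letters, not binding sites. The 150 bases before the start of 3 of these genes are given because their interactions are described above and they hold matches close to the start. They were picked for these matches and do not stand for all 11. In the same 150 bases, Birc5, Nusap1, Nuf2 and Tk1 held none of the letters searched. The sequences are written 5′ to 3′ on the strand of the gene, with matches on either strand in capitals.
Mki67 promoter, chr7:135716380-135716529, minus strand, GRCm38.p6: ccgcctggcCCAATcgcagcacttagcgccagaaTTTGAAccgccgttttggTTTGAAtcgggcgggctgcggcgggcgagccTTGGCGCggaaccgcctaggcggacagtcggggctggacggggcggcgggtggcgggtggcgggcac
Ube2c promoter, chr2:164769779-164769928, plus strand, GRCm38.p6: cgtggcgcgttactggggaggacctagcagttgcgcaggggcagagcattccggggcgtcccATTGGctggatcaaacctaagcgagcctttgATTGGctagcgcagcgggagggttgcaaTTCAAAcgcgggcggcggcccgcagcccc
Ccnb2 promoter, chr9:70421555-70421704, minus strand, GRCm38.p6: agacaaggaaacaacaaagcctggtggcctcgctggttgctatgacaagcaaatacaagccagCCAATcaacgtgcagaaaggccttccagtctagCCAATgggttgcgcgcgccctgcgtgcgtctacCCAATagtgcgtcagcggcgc
The Mki67 window held TTTGAA at 116 and 98 bases before the start, with a CCAAT box further out and the E2F letters nearer. The Ube2c window held TTTGAA on the other strand, 29 bases before the start, after CCAAT boxes at 88 and 57. The Ccnb2 window held 3 CCAAT boxes, at 87, 54 and 21 bases before the start, and no TTTGAA.

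Receptors that T cells raise on activation formed the next group. Cd83, which encodes a surface protein of activated lymphocytes and dendritic cells, read 4.58, 5.05 and 4.74 log2 on the low dose of 102S, and 7.24, 7.88 and 7.69 on the high dose. It read 9.12, 9.44 and 8.98 with 0.2 µg of MCC and 8.79, 9.20 and 8.83 with 2 µg of MCC. Both doses of MCC overlapped, while the mean with 102S was 2.81 log2 higher at 2 µg than at 0.2 µg. The interaction of Cd83 was -3.05 ± 0.28 (adjusted p = 0.00031), and the peptide difference was 20.9-fold at 0.2 µg and 2.53-fold at 2 µg.

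Tnfrsf18, which encodes the costimulatory receptor GITR, moved toward the middle from both sides. It read 8.25, 8.37 and 8.40 with 102S at 0.2 µg, 9.18, 9.21 and 9.30 with 102S at 2 µg, 9.96, 10.01 and 9.94 with 0.2 µg of MCC, and 9.25, 9.57 and 9.01 with 2 µg of MCC. The peptides differed 3.10-fold at 0.2 µg and 1.03-fold at 2 µg, where their arrays overlapped. The interaction was -1.59 ± 0.18 (adjusted p = 0.00131). Icos, a costimulatory receptor of the CD28 family, rose from 7.90 to 8.14 to between 8.99 and 9.29 with the dose of 102S, and stayed between 9.49 and 9.84 with MCC, an interaction of -1.20 ± 0.17 (adjusted p = 0.00676). A dimmer probe set for Icos gave -0.48 (adjusted p = 0.586). Tfrc, the transferrin receptor through which dividing cells take up iron, was lower with 2 µg than with 0.2 µg of MCC, at 8.39 to 8.63 against 9.14 to 9.41, and its interaction was -0.97 ± 0.16 (adjusted p = 0.0119). A dimmer probe set for Tfrc gave -0.80 and did not pass (adjusted p = 0.311).

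Among all 7956 genes, 67 passed below 0 and 5 above. Of 17 costimulatory and activation receptors listed, 15 were tested, 5 passed below 0 and 0 above, and the median was -0.97. The fifth was Tnfrsf9, which encodes the costimulatory receptor 4-1BB, with an interaction of -1.61 ± 0.28 (adjusted p = 0.019) that no longer passed in 5 of 12 fits without 1 array (adjusted p up to 0.0699, without replicate 2 of 102S at 2 µg). Of 8 tested inhibitory receptors and ligands 2 passed below 0, and the median of this list was -0.13. Cd200, a surface glycoprotein that engages an inhibitory receptor, read 5.09 to 5.52, 7.99 to 8.26, 8.47 to 8.97 and 9.69 to 9.98 in the order 102S at 0.2 and 2 µg, then MCC at 0.2 and 2 µg. It rose with the dose of both peptides, 6.78-fold with 102S and 2.07-fold with MCC, and its interaction was -1.71 ± 0.23 (adjusted p = 0.00432). Pdcd1lg2, a ligand of PD-1, had -2.11 ± 0.43 at an adjusted p of 0.0465, and no longer passed in 10 of 12 fits without 1 array (adjusted p up to 0.153, without replicate 2 of 102S at 2 µg).

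**Figure D2:**
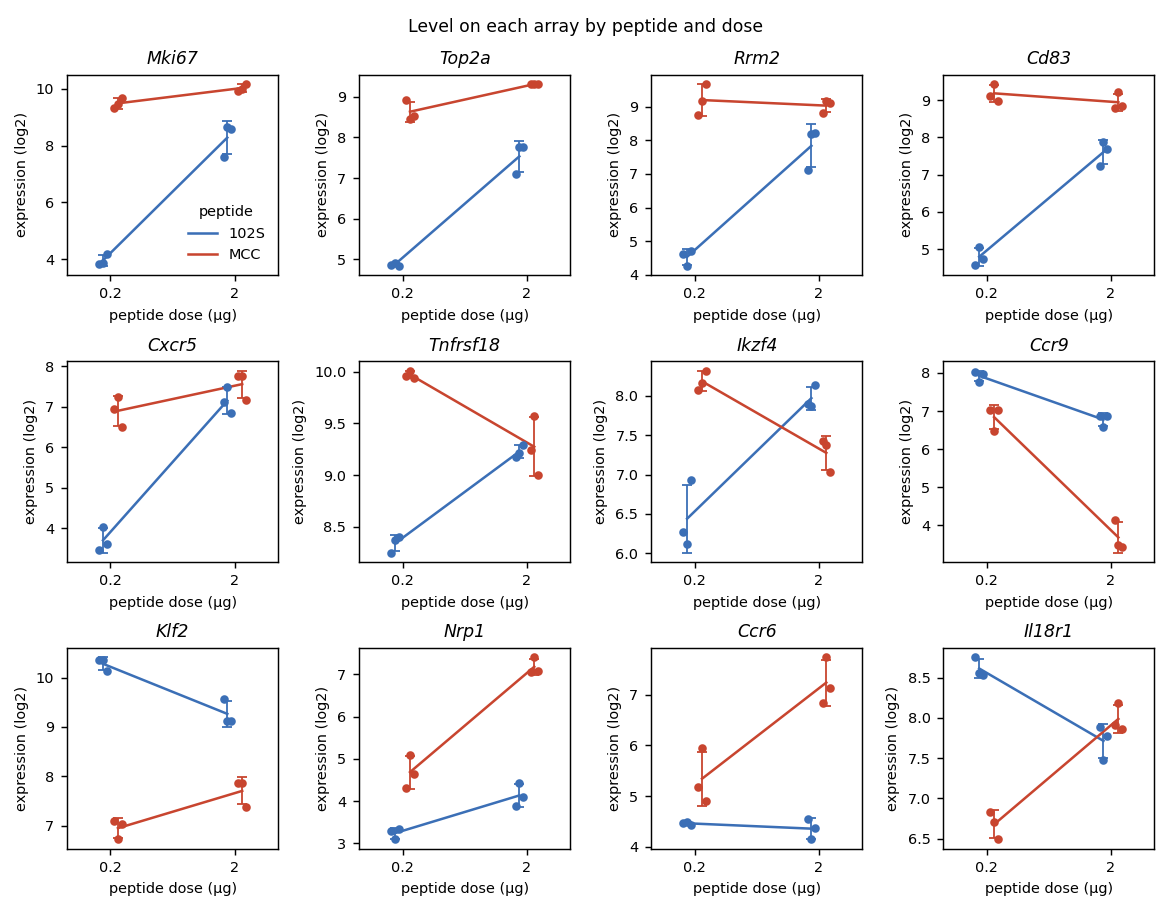
The level of 12 genes on each array (points, log2 expression) by peptide dose (x axis, 0.2 and 2 µg), with the mean of 3 arrays joined by lines and bars of 1 SD, for 102S (blue) and MCC (red). In Mki67, Top2a, Rrm2, Cd83 and Cxcr5 the blue line climbs toward the red, in Ikzf4 and Il18r1 the lines cross, and in Ccr9, Nrp1 and Ccr6 the red line moves away at 2 µg.

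Of 11 tested genes of follicular helper T cells, which enter B cell follicles, 4 passed, all below 0, beside 67 of all 7956 genes. The 4 were Bcl6, Cd200, Cxcr5 and Icos, and the median of the list was -0.56. Cd200 and Icos were already counted in the receptor lists above. Cxcr5, the chemokine receptor that leads cells to follicles, read 3.46, 4.05 and 3.62 with 0.2 µg of 102S and 7.12, 7.49 and 6.85 with 2 µg, a 10.9-fold difference. It read 6.95, 7.24 and 6.51 with 0.2 µg of MCC and 7.75, 7.75 and 7.17 with 2 µg. The high dose of 102S thus overlapped both MCC groups, and the interaction was -2.78 ± 0.35 (adjusted p = 0.00231). Bcl6, the transcription factor that directs this lineage, read 6.62 to 7.01 with 0.2 µg of 102S, 7.88 to 8.17 with 2 µg of 102S, 7.77 to 7.90 with 0.2 µg of MCC and 7.67 to 7.90 with 2 µg of MCC. Its interaction was -1.23 ± 0.19 (adjusted p = 0.01), while a dimmer probe set, at 4.57 to 5.40 on all arrays, gave 0.08 (adjusted p = 0.944). Without the replicate 1 arrays Bcl6 no longer passed.

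Other receptors for chemokines went separate ways. Cxcr6, a receptor of effector T cells, read 4.52 to 4.88 with 0.2 µg of 102S and between 6.63 and 7.58 in the other 3 groups, with an interaction of -2.65 ± 0.26 (adjusted p = 0.000441). Its other probe set, more variable between arrays, gave -1.43 (adjusted p = 0.426). Ccr9, a homing receptor for the small intestine, was lowest with the strongest stimulus. It read 8.03, 7.77 and 7.98 with 102S at 0.2 µg, 6.88, 6.58 and 6.87 with 102S at 2 µg, 7.03, 6.47 and 7.03 with 0.2 µg of MCC, and 4.14, 3.49 and 3.42 with 2 µg of MCC. All 3 arrays of the last group lie under the detection filter of 4.47. The interaction of this probe set was -2.01 ± 0.30 (adjusted p = 0.00853). Another for Ccr9 was also lowest with 2 µg of MCC, at 4.41 to 5.08, but gave an interaction of -0.12 (adjusted p = 0.92). Ccr6, described below with the genes raised by MCC, was the only one of 11 tested chemokine and egress receptors past the test above 0. Among all 7956 genes, 5 passed above 0.

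Of 9 tested genes often read as regulatory T cell genes, 4 passed below 0, beside 67 of all 7956 genes. In Ikzf4 and Gpr83 the peptide difference changed sign with dose. Foxp3, which defines that lineage, was under the detection filter and was not tested. Ikzf4, which encodes the transcription factor Eos, read 6.27, 6.12 and 6.93 with 0.2 µg of 102S and 8.07, 8.16 and 8.32 with 0.2 µg of MCC, 3.35-fold higher with MCC. At 2 µg it read 7.90, 7.88 and 8.14 with 102S and 7.42, 7.37 and 7.03 with MCC, 1.62-fold lower with MCC. The peptides' arrays did not overlap at either dose, both differences passed (adjusted p = 8.39e-05 and 0.0444), and the interaction was -2.44 ± 0.28 (adjusted p = 0.00131). Gpr83, a G protein-coupled receptor, read 6.46 to 6.95 with 102S and 7.71 to 8.09 with MCC at 0.2 µg, and 7.18 to 7.36 with 102S and 5.61 to 6.64 with MCC at 2 µg. Its differences also passed at both doses in opposite directions, 1.07 and -1.004, with an interaction of -2.08 ± 0.35 (adjusted p = 0.0141). These were the only genes of the 87 with that property. The others of this list to pass were Tnfrsf18 and Tnfrsf9, both already counted as activation receptors, and the list's median was -1.59. Its member Nrp1 lay on the other side of 0.

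Nrp1, which encodes the coreceptor neuropilin-1, was raised mainly by 2 µg of the strong peptide. It read 3.30, 3.09 and 3.33 with 102S at 0.2 µg, 3.87, 4.43 and 4.10 with 102S at 2 µg, 4.32, 5.10 and 4.63 with 0.2 µg of MCC, and 7.06, 7.40 and 7.08 with 2 µg of MCC. The last group stood apart from the rest, and the interaction was 1.60 ± 0.30 (adjusted p = 0.0315). Its 102S groups lay under the detection filter, and it no longer passed in 8 of 12 fits without 1 array (adjusted p up to 0.104, without replicate 3 of 102S at 2 µg). The brighter probe set for Nrp1 read 4.47 to 4.88, 5.80 to 6.40, 6.29 to 6.92 and 9.09 to 9.65 in that order and missed the threshold at 1.42 ± 0.31 (adjusted p = 0.0682). Ccr6, a chemokine receptor of cells drawn to mucosal tissue, read 4.15 to 4.55 in both 102S groups, 5.18, 5.94 and 4.91 with 0.2 µg of MCC and 6.85, 7.74 and 7.14 with 2 µg, an interaction of 2.00 ± 0.38 (adjusted p = 0.0316). It was lost in 7 of 12 fits without 1 array, with an adjusted p of up to 0.109, without replicate 2 of 102S at 2 µg.

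Spry1, an inhibitor of signalling through the ERK pathway, had the same shape. It read 4.08 to 4.77 in the 3 weaker groups together and 6.13, 6.39 and 5.86 with 2 µg of MCC, a rise of 3.04-fold over 0.2 µg of MCC. Its interaction was 1.47 ± 0.26 (adjusted p = 0.02), lost in 6 of 12 fits without 1 array (adjusted p up to 0.0711, without replicate 3 of 102S at 2 µg). It was the only one of 17 tested brakes of receptor signalling to pass, beside 5 of all 7956 genes above 0. Endod1, named for an endonuclease domain, read 4.31 to 5.197 in the 3 weaker groups and 6.82, 6.83 and 6.35 with 2 µg of MCC, an interaction of 1.74 ± 0.27 (adjusted p = 0.00909). Its other probe sets gave 1.27, 0.96 and 1.09 and did not pass (adjusted p = 0.0904, 0.492 and 0.2115). That with 0.96 was graded, at 2.56 to 3.66 and 4.39 to 4.62 with 0.2 and 2 µg of 102S. With MCC it read 4.99 to 5.84 at 0.2 µg and 7.61 to 7.98 at 2 µg. Alcam, an adhesion molecule that binds CD6, had 1.24 ± 0.25 at an adjusted p of 0.0443, and the call was lost whichever array was left out (adjusted p up to 0.131, without replicate 2 of 102S at 2 µg). Another probe set for Alcam gave 0.95 (adjusted p = 0.379). The Alcam probe set that passed had means of 4.04 and 3.99 with 0.2 and 2 µg of 102S and 4.39 with 0.2 µg of MCC. All of these lie under the filter of 4.47. Its 12-array mean of 4.50 was over the filter only through 2 µg of MCC, at 5.58. With 102S, the probe sets that passed for these 5 genes were close to or under the filter. The brighter Nrp1 probe set was not, with a mean of 6.13 at 2 µg of 102S.

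Klf2 and Il18r1 also had interactions above 0, but were lower with MCC than with 102S at 0.2 µg. Klf2, a transcription factor that keeps T cells at rest and recirculating, read 10.36, 10.35 and 10.13 with 102S at 0.2 µg, 9.57, 9.12 and 9.11 with 102S at 2 µg, 7.09, 6.72 and 7.03 with 0.2 µg of MCC, and 7.85, 7.87 and 7.39 with 2 µg of MCC. MCC was 10.1-fold lower than 102S at 0.2 µg and 2.95-fold lower at 2 µg. Its lowest level was with the low and not the high dose of MCC, and the interaction was 1.77 ± 0.24 (adjusted p = 0.00471). Il18r1, a chain of the interleukin-18 receptor, read 8.75, 8.56 and 8.53, then 7.88, 7.48 and 7.78, with the doses of 102S, and 6.83, 6.71 and 6.49, then 7.92, 8.19 and 7.86, with those of MCC. At 2 µg the arrays of the peptides met, and the interaction was 2.21 ± 0.21 (adjusted p = 0.000399), the highest of the 9. The unnamed transcript 1700097N02Rik followed the same course, with 1.75 ± 0.24 (adjusted p = 0.00456). Its brighter probe sets gave 0.95 and 0.80 and did not pass (adjusted p = 0.1435 and 0.187). Ighm, the constant region of immunoglobulin M, had 0.71 ± 0.13 (adjusted p = 0.0245). It was lost in 7 of 12 fits without 1 array, with an adjusted p of up to 0.0981, without replicate 3 of 102S at 2 µg. Other probe sets for Ighm gave 0.71 (adjusted p = 0.205) and, on the other side of 0, -0.21 (adjusted p = 0.738). The mean levels of the Ighm probe set that passed were 11.45, 10.998, 10.47 and 10.73 in the order 102S at 0.2 and 2 µg, then MCC at 0.2 and 2 µg. It makes up most of the summed B cell list. The other B cell markers did not all follow it. In the same order Cd74 averaged 5.84, 6.04, 7.23 and 7.23 and Cd79b 4.47, 4.86, 5.73 and 5.23, higher with MCC. Cd22, with an interaction of 1.06 (adjusted p = 0.475), lay on the same side of 0 as Ighm, and Sdc1 gave -0.04 (adjusted p = 0.978). Cd79a, Ms4a1, Pax5, Blk and Jchain were under the filter in all 4 groups. Of these, all but Cd79a had their highest mean with 0.2 µg of 102S. The part of other cells in this result was not tested.

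Outside the lists, Slc22a2, a transporter of organic cations, and Wnt10a, a secreted Wnt ligand, had interactions of a size seen otherwise in division genes and in Cd83. Slc22a2 read 3.70, 3.80 and 4.17 with 102S at 0.2 µg, 5.80, 6.02 and 6.31 with 102S at 2 µg, 6.98, 7.38 and 7.05 with 0.2 µg of MCC, and 5.96, 5.96 and 5.83 with 2 µg of MCC. The peptides differed 9.49-fold at 0.2 µg and overlapped at 2 µg, and the interaction was -3.38 ± 0.26 (adjusted p = 0.00021). Wnt10a read 5.29, 5.12 and 4.66, then 6.49, 7.48 and 7.10, with 102S, and 9.77, 9.71 and 9.60, then 8.84, 8.64 and 8.19, with MCC, an interaction of -3.13 ± 0.35 (adjusted p = 0.00121). In both genes the dose of 102S raised the level and the dose of MCC lowered it, and all 4 dose differences passed. Fabp5, a fatty acid carrier, was also lower with 2 than with 0.2 µg of MCC, at 7.54 to 7.97 against 8.48 to 9.04, with an interaction of -1.61 ± 0.25 (adjusted p = 0.00878). A dimmer probe set for Fabp5 gave -1.21 and did not pass (adjusted p = 0.0901). Ctsw, a protease of cytotoxic cells, fell with the dose of MCC, from between 7.78 and 7.91 to between 6.19 and 6.80. Its interaction was -1.21 ± 0.25 (adjusted p = 0.0443), lost in 10 of 12 fits without 1 array (adjusted p up to 0.136, without replicate 3 of 102S at 2 µg). The summed list of CD8 T and NK cell markers, given above, was also lowest with 2 µg of MCC, and its part in this result was not tested.

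Cytokine genes gave few calls. Of 17 tested cytokine receptor chains, Il2rb and Il6st passed below 0 and Il18r1 above, and the median was 0.21. Among all 7956 genes, 67 passed below 0 and 5 above. Il2rb, the signalling chain shared by the receptors for interleukin-2 and interleukin-15, rose from between 4.97 and 5.42 to between 6.95 and 7.07 with the dose of 102S and lay between 7.33 and 8.15 in all MCC arrays. Its interaction was -1.59 ± 0.27 (adjusted p = 0.0179), lost in 5 of 12 fits without 1 array (adjusted p up to 0.0674, without replicate 2 of MCC at 0.2 µg). A dimmer probe set for it gave 0.22 (adjusted p = 0.898). Il6st, the gp130 chain of the interleukin-6 receptor family, had -0.86 ± 0.16 (adjusted p = 0.0254), lost in 7 of 12 such fits (adjusted p up to 0.0894, without replicate 3 of MCC at 2 µg). A dimmer probe set for Il6st gave 0.67 ± 0.74 (adjusted p = 0.777). Of 7 tested cytokines Lta, which encodes lymphotoxin alpha, passed with -1.33 ± 0.21 (adjusted p = 0.0117), reading 6.96 to 7.26, 7.85 to 8.26, 7.84 to 8.14 and 7.42 to 7.75 in the order of groups above. Il2, Ifng and Tbx21 were under the detection filter in their mean over the 12 arrays and were not tested. Il2 missed it narrowly, at 4.45 against 4.47. Its means were 3.32 and 4.12 with 0.2 and 2 µg of 102S, and 4.46 and 5.91 with 0.2 and 2 µg of MCC. Marcks, an actin-binding substrate of protein kinase C, passed with -2.05 ± 0.32 (adjusted p = 0.0095), 1 of 26 tested actin regulators. The median of that list was 0.23 and only 26.9% of it lay below 0, so Marcks does not stand for the list. Other probe sets for Marcks gave -1.43, -1.52, -0.14 and -0.98 and did not pass (adjusted p from 0.0607 to 0.907).

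Several well known genes of T cell activation did not pass, which does not show that their interaction is 0. With the replicate number as a block, Ctla4, Irf4, Gata3 and Il7r did pass, as given below. Ctla4, an inhibitory receptor, missed the threshold narrowly, with an interaction of -2.13 (95% interval -3.11 to -1.14; adjusted p = 0.0598), reading 4.63 to 5.99 with 0.2 µg of 102S and 8.35 to 10.00 in the other 3 groups. Pdcd1, which encodes PD-1, rose with the dose of each peptide, 2.71-fold with 102S and 2.02-fold with MCC, an interaction of -0.42 (-0.86 to 0.01). Irf4, a transcription factor graded with receptor signal, gave -1.06 (95% interval, here and below, -1.65 to -0.48; adjusted p = 0.128). Nr4a1, an early receptor target, gave -0.63 (-1.24 to -0.01), Egr2 -0.17 (-0.54 to 0.19), Il2ra, the alpha chain of the interleukin-2 receptor, -0.44 (-1.09 to 0.22), and Lag3 0.72 (-0.01 to 1.44). Il7r, the receptor chain of resting cells, was 10.4-fold lower with MCC at 0.2 µg and 4.62-fold lower at 2 µg, with an interaction of 1.17 (0.45 to 1.89; adjusted p = 0.202). Gata3 gave 0.66 (0.25 to 1.08), Myc 0.61 (-0.41 to 1.63) and the lymph node homing receptor Ccr7 0.03 (-0.74 to 0.79).

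**Figure D3:**
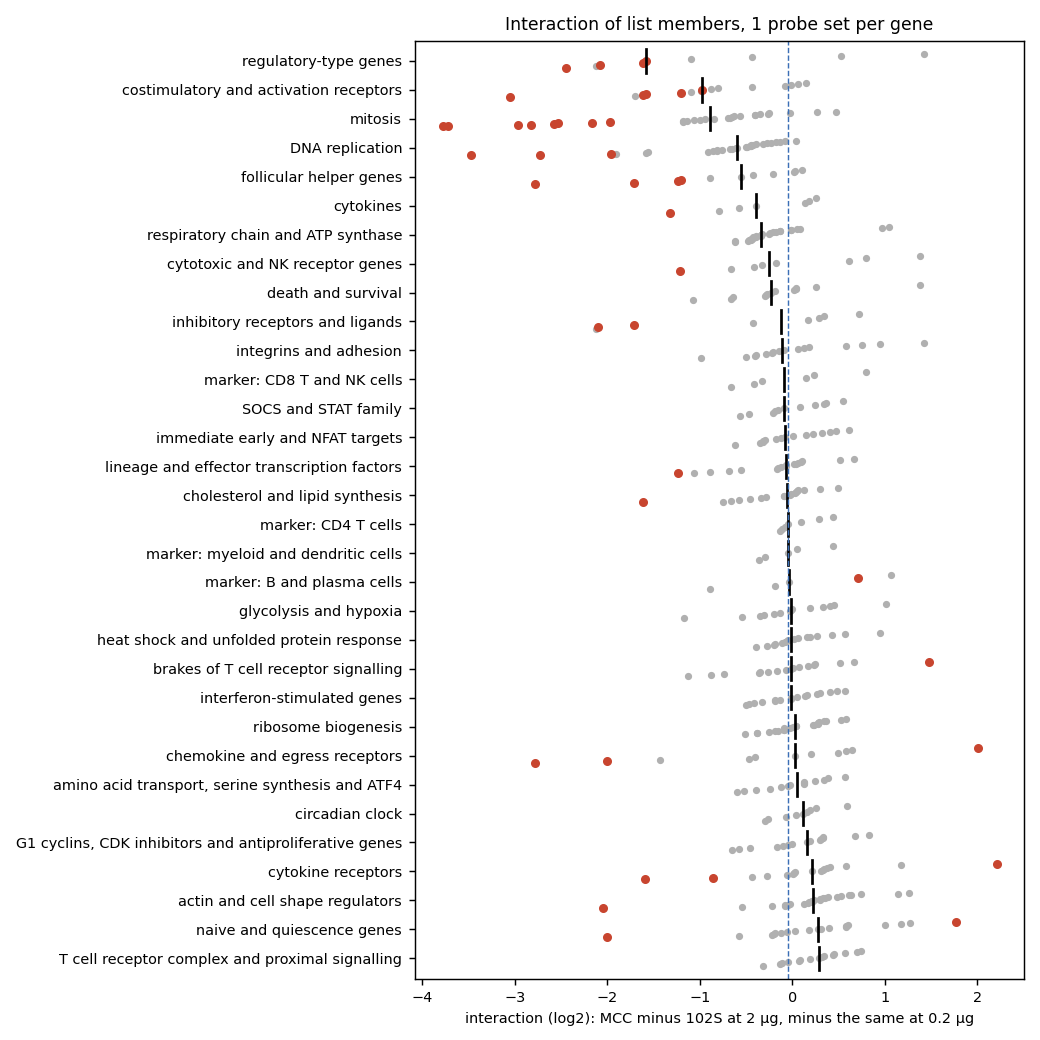
The interaction (x axis, log2) of each tested gene of 28 gene lists and 4 marker lists, 1 probe set per gene, with genes past the test in red, others in grey, list medians as black bars and the median of all 7956 genes as a dashed line. Red points crowd at the left in the lists of regulatory-type genes, activation receptors, mitosis, DNA replication and follicular helper genes, and most other lists lie around the dashed line.

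The remaining lists held few genes past the test or none. Over all 7956 genes 67 passed below 0 and 5 above, so 0 in a list of this size is near that share. Of 19 tested naive and quiescence genes Ccr9 passed below 0 and Klf2 above, with a median of 0.27. Of 17 lineage transcription factors Bcl6 passed, of 8 cytotoxic genes Ctsw and of 18 cholesterol and lipid genes Fabp5, with medians of -0.07, -0.25 and -0.06. None passed of 24 ribosome biogenesis genes (median 0.02), 11 SOCS and STAT genes (-0.09), 15 immediate early and NFAT target genes (-0.09), 15 genes of the receptor complex and its kinases (0.28) or 13 death and survival genes (-0.23). Likewise 0 passed of 17 interferon-stimulated genes (-0.01), 14 amino acid and ATF4 genes (0.05), 9 circadian clock genes (0.12), 16 genes of the unfolded protein response (-0.02) and 27 respiratory chain genes (-0.34). In the respiratory chain list 85.2% of genes lay below 0 without 1 of them passing. The chosen probe sets of 16 integrins and adhesion genes and of 14 glycolysis genes did not pass, with medians of -0.11 and -0.02, although Alcam and Nrp1 in the former and Slc2a3 in the latter passed by another probe set.

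The interaction was compared between the replicates, since replicate 1 came from another source. Fitted on replicates 2 and 3 alone, 106 probe sets passed. In the replicate 1 arrays, which that fit did not use, 105 of these had an interaction of the same sign, or 99.1%, beside 61.3% of all 13576 tested probe sets. The median of the 106 was -1.99 in replicates 2 and 3 and -1.29 in replicate 1, beside -0.03 and -0.003 over all tested probe sets. An interaction near 0 changes sign readily, so the shares of 99.1% and 61.3% are not a like comparison. No set of interactions of like size was compared. Of the 106, 72 were among the 104 that passed with all arrays. Of the 39 named probe sets that passed with all arrays, 12 did not pass in replicates 2 and 3. These included 6 of the 9 above 0, with adjusted p of 0.0587 for Ccr6, 0.0707 for Endod1, 0.139 for Ighm, 0.15 for Spry1, 0.169 for Nrp1 and 0.178 for Alcam. Below 0 they were Il2rb (0.0614), Ctsw (0.0641), Tnfrsf9 (0.0846), Il6st (0.0976), Bcl6 (0.099) and Tfrc (0.103). The 95 probe sets past the test with 1 gene symbol were chosen with all 12 arrays, so their signs in the replicates are no further test. All 95 kept their sign in both, and 70 of them were smaller in replicate 1. Mki67 is an example: on the replicate 1 array of 2 µg of 102S it read 7.60, against 8.67 and 8.56 on the others.

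**Figure D4:**
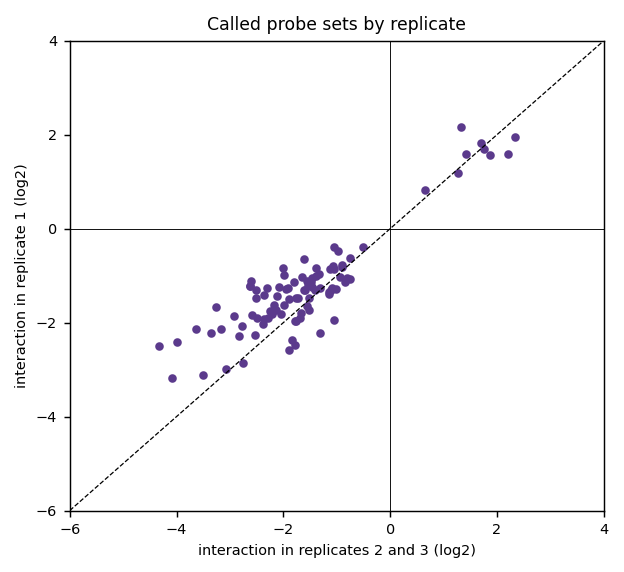
The interaction of the 95 probe sets that passed, in replicates 2 and 3 (x axis, log2) and in replicate 1 (y axis, log2), with a dashed line of equal values. All points lie at the lower left or the upper right, and most of those below 0 lie over the line, nearer to 0 in replicate 1. The probe sets were chosen with all 12 arrays, so like signs are a description and no test.

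RNA quality differed between arrays and groups. The control probe sets at both ends of the β-actin transcript give a 3′ less 5′ difference that grows with degraded or shorter RNA. This was 1.33 ± 0.88 log2 in 102S at 0.2 µg, 1.24 ± 0.41 in 102S at 2 µg, 1.62 ± 0.81 in MCC at 0.2 µg and 0.63 ± 0.12 in MCC at 2 µg (SD, n = 3). Its own interaction was -0.89. Leaving out the arrays with the largest difference, replicate 3 of 102S and of MCC at 0.2 µg, kept 71 of the 104 calls in a total of 83, and with the difference as a covariate all 104 passed in a total of 285. Mki67, Cd83, Cxcr5, Ikzf4, Klf2 and Il18r1 passed in both. Without those arrays Tk1, Pdcd1lg2, Ctsw, Nrp1, Ccr6 and Alcam no longer passed.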

How the data were processed

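The deposited values are log2 expression, 1 for each probe set on each array. The log2 scale was read from their range (1.86 to 14.7), and the submitters' processing notes name GCOS 1.4. The authors' background correction and probe summary are not given in the sources used here. No further normalization was applied, as array medians lay within 0.089 log2 of each other. The number of arrays limits the precision.

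Genes were named from the platform annotation: 20393 of 22690 probe sets had 1 symbol, 691 several and 1606 none, and 20364 were found in RefSeq (GRCm38.p6), which changed 0 symbols. The 64 control probe sets, and those with a 12-array mean below the 40th percentile (log2 4.47), were not tested. Groups came from the sample titles. limma 3.58.1 (lmFit, then eBayes with an intensity trend, in R 4.3.3) was used on the 4 group means, giving 8 residual and 4.16 prior degrees of freedom. Tests were 2-sided, adjusted by Benjamini-Hochberg over 13576 probe sets, threshold 0.05. A ± after an interaction is its standard error. In lists, the probe set with the highest mean stood for a gene. On simulated data with the spread of these arrays the fit recovered 69% of interactions of 1.5 log2 and 97% of those of 3 log2, with 10 false calls.

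The members, lists and rules were chosen with earlier results of these data known, so they are no independent evidence. The genes named are the 12 lowest interactions and all 9 above 0 (a limit of 12 was set for each side), up to 4 genes past the test per list, a set of known activation genes, and genes differing in opposite directions at both doses. Ccna2, Ube2c, Kif11, Slc2a3 and the genes of the closing section outside this rule were chosen after their values were seen. Alternatives were other filters, normalizations, variance models, covariates, replicate subsets and each array left out; leaving out the arrays of highest β-actin difference was added after the data were seen.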

Additional observations from a re-analysis of the deposited data

Results flagged for a closer look

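For 39 named probe sets the effect of the peptide differed between the doses by the test of that difference, the interaction in limma. Those below 0, from the lowest, were Mki67 -3.78, Birc5 -3.72, Rrm2 -3.47, Slc22a2 -3.38, Wnt10a -3.13, Cd83 -3.05, Ccnb2 -2.97, Nusap1 -2.82, Cxcr5 -2.78, Pclaf -2.73, Cxcr6 -2.65, Nuf2 -2.58, Ikzf4 -2.44, Pdcd1lg2 -2.11 and Gpr83 -2.08 on the log2 scale. They were followed by Marcks -2.05, Ccr9 -2.01, Top2a -1.97, Tk1 -1.96, Cd200 -1.71, Tnfrsf9 -1.61, Fabp5 -1.61, Il2rb -1.59, Tnfrsf18 -1.59, Lta -1.33, Bcl6 -1.23, Ctsw -1.21, Icos -1.20, Tfrc -0.97 and Il6st -0.86. Those above 0 were Il18r1 2.21, Ccr6 2.00, Klf2 1.77, 1700097N02Rik 1.75, Endod1 1.74, Nrp1 1.60, Spry1 1.47, Alcam 1.24 and Ighm 0.71. The tests behind these values, and the arrays on which they rest, are given above with each gene.

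A signal was also seen among probe sets that the comparison by gene did not use. Of the 104 interactions past the test, 9 belonged to probe sets with several gene symbols or none. One with an interaction above 0 had a mean of 7.70 log2 with 2 µg of MCC and 4.51 to 4.96 in the other 3 groups, an interaction of 2.56. The lowest interactions were -2.94 and -2.91. Both of these probe sets were low with 0.2 µg of 102S, at 8.70 and 5.98, and close to the MCC levels with 2 µg of 102S, at 11.47 and 9.02.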

How the results depend on the processing

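The direction of the 39 named interactions past the test held in every alternative and every omission of 1 array that was run; 25 passed in all 11 alternatives and 28 in all 12 omissions. The count of 104 was 87 without the filter, 104 with a filter on any group mean, 124 after quantile normalization, 96 after median centring, 96 without the intensity trend, 106 in replicates 2 and 3 alone and 83 without both arrays whose β-actin difference was highest, an alternative added after the data were seen. It moved by over 1.5 times under 4 models: 245 with replicate 1 against the others as a covariate (205 below 0, 40 above), 285 with the β-actin difference as a covariate (253 and 32), 321 with the replicate number as a block (243 and 78) and 6733 with array weights (2797 and 3936), which turned the majority to interactions above 0. All 104 passed under the block, the weights and the β-actin covariate. The cause of these moves was not tested, and the fitted weights ran from 0.195 to 6.20. Arrays of the same replicate number correlated in their deviations from -0.29 to 0.82, over 0.1 in 16 of 18 pairs, and 10 of 12 arrays correlated best with their own number. In replicate 1, which Xist also sets apart, the correlations were 0.56 to 0.82, so arrays of that number share something. As 2 of the 18 pairs fell short of 0.1 and the labels state no shared batch, the numbers were not taken as pairs. The main fit therefore leaves what they share in its standard errors. With the block Ctla4, Irf4, Gata3, Il7r and the brighter Nrp1 probe set also passed. With 1 array left out the count ran from 62 to 142, and the share of calls with the larger peptide difference at 0.2 µg, 84.2%, from 76.6 to 93.2%. Of 12 key genes not past the test, 9 passed in some alternative, and 3 changed sign: Egr2 to 0.11 with array weights, and Ccr7 to -0.47 and Myc to -0.025 with the β-actin covariate. With that covariate Ccr7 also passed, below 0 (adjusted p = 0.0197 in limma), and Myc did not. Ccr7 ran from -0.17 to 0.31 with 1 array left out. Mitosis genes past the test numbered 7 to 21 over the alternatives, and DNA replication genes 3 to 20, all below 0.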

Other observations

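Several genes past the test belonged to no list of those examined, and were picked for description after their values were seen. Myb, a transcription factor of progenitor and memory-forming lymphocytes, had a mean of 8.16 ± 0.15 log2 (SD, n = 3) on 0.2 µg and 10.21 ± 0.06 on 2 µg of 102S, and 9.87 ± 0.14 and 10.17 ± 0.05 with the same doses of MCC. Its interaction was -1.76 ± 0.15 (SE; adjusted p = 0.000239 in limma), and its other probe sets gave -1.35 ± 0.26 (adjusted p = 0.0318) and -0.87 ± 0.57 (adjusted p = 0.652). Sox4, a transcription factor related to TCF-1 in its DNA-binding domain, passed with 2 of its 4 tested probe sets, at -2.22 ± 0.27 and -2.16 ± 0.23. Its brightest probe set, which varied more between arrays, gave -1.57 ± 0.51 (adjusted p = 0.328), and the dimmest -0.09 ± 0.27 (adjusted p = 0.926). The one with -2.16 read 6.03 with 0.2 µg of 102S, 7.61 with 2 µg of 102S, 7.76 at the low and 7.19 at the high dose of MCC on average.

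H2-Oa, a chain of the class II modulator H2-O, rose from 6.64 ± 0.03 to 8.74 ± 0.14 with the dose of 102S and read 9.37 ± 0.22 and 9.21 ± 0.23 with MCC, an interaction of -2.26 ± 0.20 (adjusted p = 0.000294). Tnfsf4, which encodes OX40 ligand, read 4.36, 6.61, 7.20 and 7.33 in the order 102S at 0.2 and 2 µg, then MCC at 0.2 and 2 µg, with -2.13 ± 0.36 (adjusted p = 0.0156). Dennd5a, which encodes a regulator of membrane traffic, stood apart with 2 µg of MCC, at 4.23 ± 0.40 against 6.25 to 6.66 in the other 3 groups, and its interaction was -1.67 ± 0.32 (adjusted p = 0.0306).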
